A study of Mus musculus with 24 samples.

Results

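GIMAP genes (GTPases of immunity-associated proteins) encode membrane-bound GTPases known mainly from lymphocytes, where loss of single members can shorten cell survival. In the mouse they lie side by side on chromosome 6. Gimap5 is the member best studied in stem cells, since mice without it lose lymphocytes and their blood stem cells become exhausted. The 8 members Gimap1, Gimap3, Gimap4, Gimap5, Gimap6, Gimap7, Gimap8 and Gimap9 were found by symbol among the 23991 gene symbols of each library. The family was chosen by FPKM values of these libraries, because Gimap6 was far higher in LSK than in GMP cells and Gimap1 was higher in IRE1_KO_ITD LSK cells. Differences between GMP and LSK cells, those that use the IRE1_KO_ITD LSK libraries, and all values of Gimap6 and of Gimap1 in LSK cells are therefore described without a test.

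RNA was sequenced from 24 libraries of cells sorted from the bone marrow of C57BL/6 mice, 12 of GMP cells and 12 of LSK cells. The LSK gate (lineage negative, Sca1 positive, cKit positive) holds stem and multipotent progenitor cells, and GMP cells are granulocyte-macrophage progenitors. In each population 3 libraries came from Ern1(fl/fl)-VavCre-Flt3-ITD mice (labelled IRE1_KO_ITD), 3 from Flt3-ITD mice (ITD), 3 from Ern1(fl/fl)-VavCre mice (IRE1_KO) and 3 from wild type mice (WT). Flt3-ITD is an internal tandem duplication that keeps the receptor kinase Flt3 active, and IRE1α, the product of Ern1, senses stress in the endoplasmic reticulum. VavCre recombines in blood cells of all lineages, both IRE1_KO genotypes carry it, and no group carries VavCre without the floxed Ern1. The labels give no age, sex or zygosity of the ITD allele, and they do not say that the libraries of a group came from separate animals, so p-values measure only the spread between these libraries.

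The unit was FPKM, in which fragments are scaled by transcript length and by the mapped fragments of the library, so levels of different genes are compared per length. FPKM summed to between 567255 and 673177 in GMP libraries and between 510361 and 571899 in LSK libraries. No source used here gives read totals; judged by the steps between low values, depth ranged from 0.920 to 1.28 relative to WT LSK replicate 1. Sex as read from Xist and genes of the Y chromosome was female throughout the ITD groups, 3 libraries in GMP and 3 in LSK, while every other group held both sexes. A 1ng tag stands in the headers of the 3 IRE1_KO LSK files and of no other. Ern1 was higher, not lower, in libraries labelled IRE1_KO: it averaged 20.6 ± 3.48 FPKM in IRE1_KO GMP cells and 9.06 ± 1.41 FPKM in WT GMP cells (SD, n = 3 each). A gene-level value does not show whether floxed exons were removed, so Ern1 checks neither the deletion nor the labels. The population labels matched their markers. Elane, a neutrophil granule protease, ranged from 5418 to 12215 FPKM in GMP libraries and from 117 to 1003 FPKM in LSK libraries, and Ly6a, which encodes Sca1, from 13.9 to 38.7 FPKM in GMP libraries and from 62.1 to 210.0 FPKM in LSK libraries.

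One library stood apart and touches several GIMAP values. In ITD LSK replicate 1, the B cell gene Cd79a was at 0.278 FPKM, against 3.02 and 6.17 FPKM in ITD LSK replicates 2 and 3. The whole list of 12 B cell genes differed less, with sums of 180 FPKM against 196 and 222 FPKM. The summed FPKM of 13 lymphoid priming genes was 345 in ITD LSK replicate 1, against 733 and 767 in ITD LSK replicates 2 and 3 and 246 to 304 in IRE1_KO_ITD LSK libraries. The log2 values of ITD LSK replicate 1 correlated with those of replicates 2 and 3 at r = 0.973 each, while replicates 2 and 3 correlated with each other at r = 0.983. Values near 0.973 also occurred in other groups, at r = 0.974 between WT LSK replicates 1 and 3 and r = 0.971 between ITD GMP replicates 1 and 2. ITD GMP replicate 1 differed from its group in the same direction for the natural killer receptor gene Klrd1, at 0.663 FPKM against 5.46 and 8.29 FPKM. Where leaving out ITD LSK replicate 1 changed a call or moved a fold by over 1.5 times, the value without it is given too.

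The cluster spans chr6:48647186-48770851 in mm10 (GRCm38.p6, RefSeq annotation), or 124 kb, in the order Gimap8, Gimap9, Gimap4, Gimap6, Gimap7, Gimap1, Gimap5, Gimap3. Gimap6 (chr6:48701583-48708244) and Gimap3 (chr6:48764464-48770851) lie on the minus strand and the other members on the plus strand. Promoter windows from RefSeq (GRCm38.p6) reach from 250 bases before to 50 bases after the start site given in that table. They are printed 5′ to 3′ on the strand of each gene for Gimap6 and Gimap1, the pair behind the choice of the family, for Gimap9, which kept the most of its LSK level in GMP cells, and for Gimap3, which varied most between LSK libraries. Capitals mark the letters GGAAGT on either strand, the core bound by ETS family factors such as PU.1.
Gimap6 (chr6:48708195-48708494, minus strand): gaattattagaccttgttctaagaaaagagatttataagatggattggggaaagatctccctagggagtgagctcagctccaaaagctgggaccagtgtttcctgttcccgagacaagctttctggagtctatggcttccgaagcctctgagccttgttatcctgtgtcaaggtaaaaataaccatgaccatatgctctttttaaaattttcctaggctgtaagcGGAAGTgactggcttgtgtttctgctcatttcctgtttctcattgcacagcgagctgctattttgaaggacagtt
Gimap1 (chr6:48738797-48739096, plus strand): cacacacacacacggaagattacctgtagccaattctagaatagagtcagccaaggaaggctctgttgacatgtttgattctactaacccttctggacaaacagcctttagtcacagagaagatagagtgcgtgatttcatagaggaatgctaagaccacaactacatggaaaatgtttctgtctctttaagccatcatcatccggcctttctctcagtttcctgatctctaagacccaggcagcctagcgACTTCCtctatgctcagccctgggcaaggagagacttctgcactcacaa
Gimap9 (chr6:48675885-48676184, plus strand): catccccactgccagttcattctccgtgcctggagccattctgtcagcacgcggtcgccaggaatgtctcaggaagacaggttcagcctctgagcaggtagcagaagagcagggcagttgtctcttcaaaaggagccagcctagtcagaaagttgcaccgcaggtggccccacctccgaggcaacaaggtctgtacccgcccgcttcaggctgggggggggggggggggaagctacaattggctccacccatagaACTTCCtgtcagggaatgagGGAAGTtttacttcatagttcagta
Gimap3 (chr6:48770802-48771101, minus strand): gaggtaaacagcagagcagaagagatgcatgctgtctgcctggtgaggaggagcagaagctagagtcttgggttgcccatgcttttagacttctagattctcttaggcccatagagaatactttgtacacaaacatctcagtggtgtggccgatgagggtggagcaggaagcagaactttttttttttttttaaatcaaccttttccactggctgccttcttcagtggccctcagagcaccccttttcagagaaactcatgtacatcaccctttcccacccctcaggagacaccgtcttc

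The letters GGAAGT or ACTTCC occurred in 4 of the 9 promoter windows of the family, those of Gimap1, Gimap5, Gimap6 and Gimap9 (Gimap8 has more than 1 window), and in 23.8% of all 32851 promoter windows of this length in the table. Counted from that start site as 0, the match began at -25 in Gimap6 and at 1 in Gimap1, and the matches in Gimap9 began at 5 and 25. The RUNX core TGTGGT, read on both strands, occurred in the windows of Gimap1, Gimap4 and Gimap7, against 16.8% of all windows. The core GACGTG of XBP1, the factor made active by IRE1α, occurred in 0 of 9 windows, against 6.38% of all windows. None of these motifs contains another, and a match describes letters, not binding. Transcripts of Gimap3 and Gimap5 share sequence, since 7.52% of the 50-base windows of Gimap3 transcripts and 9.98% of those of Gimap5 transcripts also occur in the other gene, so their values are partly uncertain. No such window was shared among the other members. GENCODE annotates an antisense gene, Gimap1os, across Gimap1, and the strand setting of the counting is not given in the sources used here, so reads of the 2 genes may not be told apart. It also annotates a gene, Gm28053, that spans Gimap7, Gimap1 and Gimap5 on their strand.

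All 8 GIMAP genes were lower in every GMP library than in every LSK library, a pattern that 8.96% of the 12348 tested genes showed. Because GMP against LSK chose the family, this is a description and the count supports nothing. Gimap6, whose human protein binds an Atg8-type protein of the autophagy machinery, had 3.09 to 9.89 FPKM in GMP libraries (median 5.89) and 86.5 to 216 FPKM in LSK libraries (median 156). Gimap1, which mature T and B cells need in mice, had 2.03 to 11.7 FPKM in GMP libraries (median 5.08) and 39.8 to 102 FPKM in LSK libraries (median 80.5). These were the most abundant members of LSK cells per length, and for both the ranges of the populations lay far apart.

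Gimap5, a lysosomal member, ranged from 0.236 to 1.94 FPKM in GMP libraries (median 0.880) and from 12.1 to 41.8 FPKM in LSK libraries (median 23.5). Gimap4, reported to speed the death of T cells, ranged from 0.175 to 1.72 FPKM in GMP libraries (median 0.562) and from 6.80 to 57.8 FPKM in LSK libraries (median 9.98). Gimap3, a close relative of Gimap5 found at mitochondria and endoplasmic reticulum, ranged from 0.0236 to 0.859 FPKM in GMP libraries (median 0.236) and from 3.19 to 44.6 FPKM in LSK libraries (median 4.91). The LSK medians of Gimap3 and Gimap4 lay close to the low end of wide ranges, because a few libraries were far above the rest. Gimap7 ranged from 0.0286 to 1.20 FPKM in GMP libraries and from 8.78 to 14.2 FPKM in LSK libraries, the narrowest LSK range of the family in relative terms. Gimap8, the member with several GTPase domains in tandem, ranged from 0.0170 to 0.216 FPKM in GMP libraries and from 1.57 to 5.72 FPKM in LSK libraries, the lowest levels of the family in both populations.

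Gimap9 differed least between the populations. It ranged from 4.33 to 17.3 FPKM in GMP libraries (median 6.69) and from 20.0 to 45.0 FPKM in LSK libraries (median 28.0). Its GMP mean was 37.8% of its LSK mean in IRE1_KO_ITD cells, 25.2% in ITD cells, 20.0% in IRE1_KO cells and 25.1% in WT cells. For Gimap6 the same shares were 6.81%, 5.45%, 3.05% and 2.55%. In GMP cells of 3 genotypes Gimap9 held the largest part of the summed GIMAP FPKM, 39.9% in IRE1_KO_ITD, 36.6% in ITD and 39.0% in WT cells, while Gimap6 led in all LSK groups. In IRE1_KO GMP cells the shares of Gimap9 (32.1%) and Gimap6 (31.7%) were close, and Gimap6 led in replicate 2 (39.7% against 20.5% for Gimap9) and in replicate 3 (32.2% against 27.4%). In GMP cells 2 members, Gimap3 and Gimap8, stayed under 1 FPKM in all 12 libraries.

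**Figure D1:**
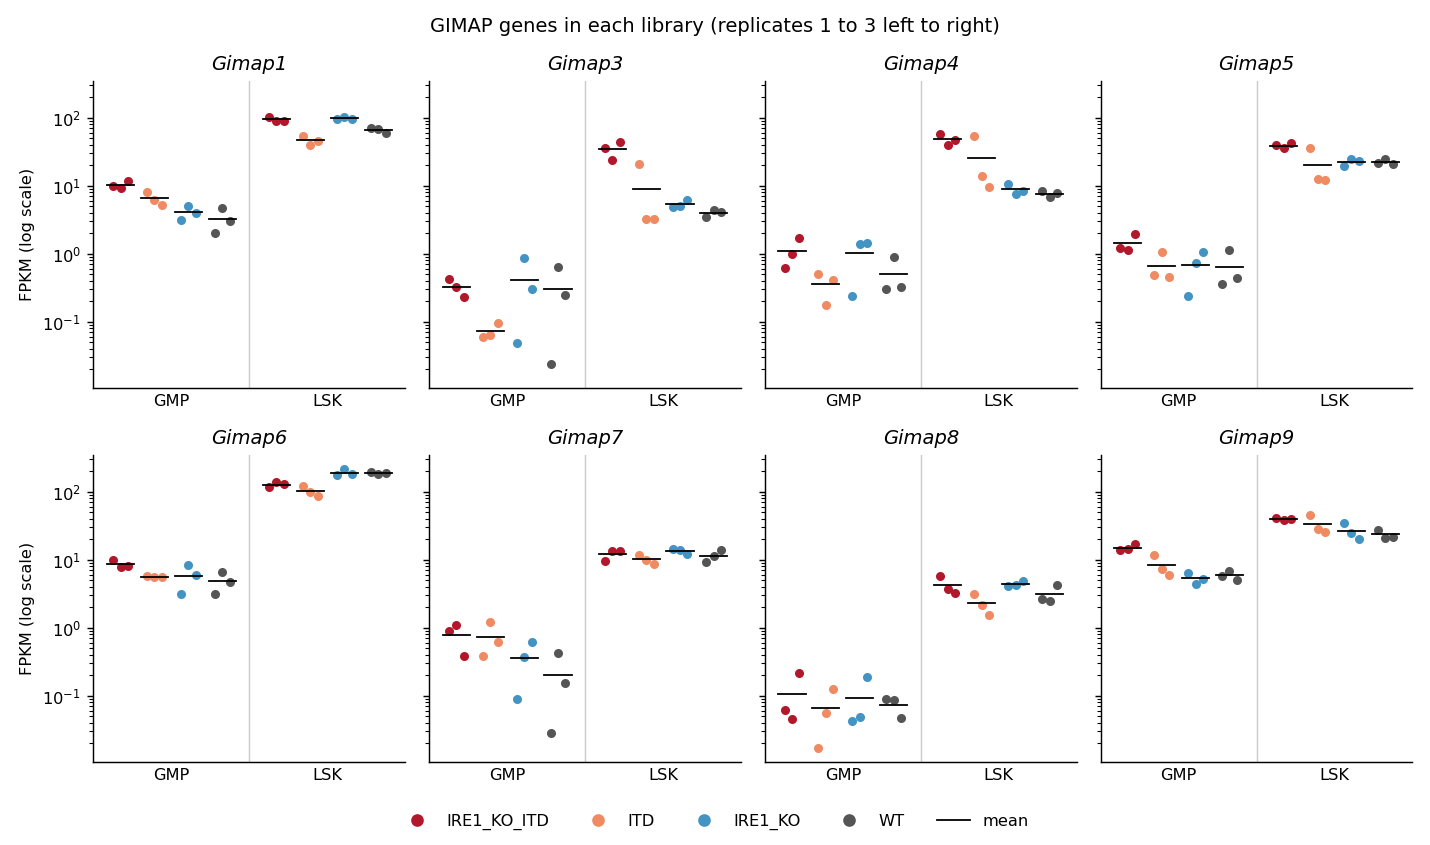
FPKM of the 8 GIMAP genes in each of 24 libraries on a log axis, with GMP groups left of LSK groups, points for replicates 1 to 3 from left to right and a line for the mean. Every GMP point lies below every LSK point of the same gene, and Gimap6 spans 3.09 to 9.89 FPKM in GMP against 86.5 to 216 FPKM in LSK libraries.

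The size of the GMP difference varied with genotype. For Gimap6 the fitted log2 difference, GMP minus LSK on the log2(FPKM + 1) scale, was -3.73 ± 0.23 in IRE1_KO_ITD, -3.96 ± 0.23 in ITD, -4.89 ± 0.23 in IRE1_KO and -5.07 ± 0.23 in WT cells (± is the SE of the fit here and below). For Gimap1 it was -3.09 ± 0.19 in IRE1_KO_ITD, -2.67 ± 0.19 in ITD, -4.31 ± 0.19 in IRE1_KO and -4.01 ± 0.19 in WT cells. Both genes thus showed the smaller differences in the pair of genotypes with ITD. Gimap3 ran the other way, at -4.71 ± 0.42 in IRE1_KO_ITD, -2.76 ± 0.42 in ITD, -2.21 ± 0.42 in IRE1_KO and -1.96 ± 0.42 in WT cells, and without ITD LSK replicate 1 it came to -1.98 in ITD. The median over the 8 members was -3.41 in IRE1_KO_ITD, -2.74 in ITD, -2.88 in IRE1_KO and -2.95 in WT cells, beside medians of -0.13, -0.16, -0.22 and -0.11 over all tested genes in the same order. In sorted bulk populations such as these, fewer cells that carry a transcript and less of it per cell cannot be told apart.

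The levels were set against genes near the cluster, in a window of 300 kb on each side that was chosen after the data were seen. Of 18 other genes there with values in the files, 10 reached 1 FPKM, and 5 of these were also lower in every GMP than in every LSK library: Krba1, Gm5111, Repin1, Tmem176b and Tmem176a. On the log2(FPKM + 1) scale Gm5111 showed a larger difference than any GIMAP gene, at -4.96, with 1.80 FPKM on average in GMP and 73.5 FPKM in LSK libraries. The added 1 shrinks differences of genes with GMP values under 1 FPKM, so this order holds for that scale only. Such genes were Gimap3 (means of 0.276 FPKM in GMP and 13.2 FPKM in LSK libraries) and Gimap8 (0.0851 and 3.50 FPKM). Of the genes between Gm5111 and the cluster, Repin1 differed by -1.71, Zfp775 by -0.57 and AI854703 by -0.75. Tmem176b and Tmem176a, on the other side of the cluster, differed by -1.47 and -1.46.

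**Figure D2:**
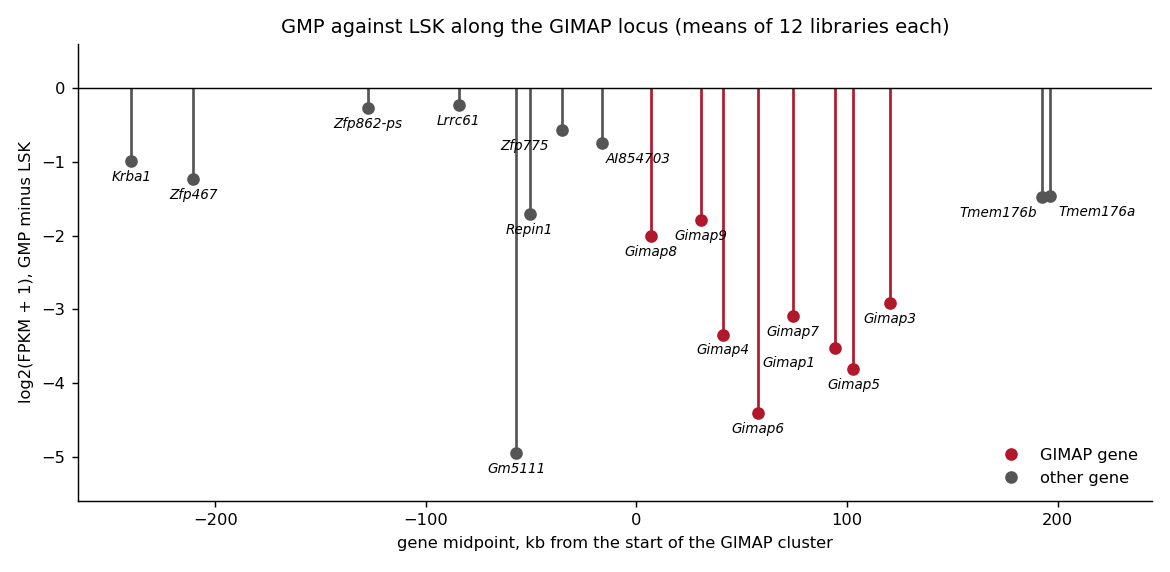
Mean difference in log2(FPKM + 1), GMP minus LSK, over 12 libraries of each population, for genes that reached 1 FPKM, plotted by distance of the gene midpoint from the start of the GIMAP cluster. The 8 GIMAP genes lie between -1.79 and -4.41, and of their neighbours Gm5111 lies lower still at -4.96.

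Among the genes most like Gimap6 over the 24 libraries, by Pearson correlation of log2(FPKM + 1) among 9694 genes with a mean of at least 5 FPKM in some group, were Tspan13 (r = 0.993), Ddah2 (r = 0.990), Nrgn (r = 0.989) and F11r (r = 0.988). Tspan13, a tetraspanin gene, ranged from 9.34 to 18.0 FPKM in GMP and from 88.6 to 195 FPKM in LSK libraries. Gimap8 stayed under a mean of 5 FPKM in every group and was not ranked, here or below. Among the ranked members Gimap7 came closest to Gimap6 at rank 10 (r = 0.986), and Gimap3 stood at rank 1034 (r = 0.826). Over the 12 LSK libraries alone, the genes most like Gimap1 among 9635 were H1f0 (r = 0.954), Rras (r = 0.953), Acadl (r = 0.944), Eid1 (r = 0.940) and Ptpre (r = 0.931). No ranked GIMAP gene was near these, the closest being Gimap5 at rank 1423 (r = 0.623). The unranked Gimap8 had its LSK means in the same order as Gimap1. They were 4.41 FPKM in IRE1_KO, 4.21 FPKM in IRE1_KO_ITD, 3.09 FPKM in WT and 2.29 FPKM in ITD cells, and neighbours in that order overlapped. Gimap7, at rank 2224 (r = 0.474), had its LSK means in this order too, so the order does not set Gimap8 apart. These values rank likeness only, since libraries of a group are not independent points and the populations form separate clusters.

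In LSK cells the family split into members that followed different libraries. Gimap1 had 102, 90.6 and 90.6 FPKM in IRE1_KO_ITD LSK cells, 53.8, 39.8 and 45.2 FPKM in ITD LSK cells, 95.6, 102 and 95.4 FPKM in IRE1_KO LSK cells and 70.5, 69.2 and 58.5 FPKM in WT LSK cells. All libraries of the pair of IRE1_KO genotypes lay above all WT libraries, and all ITD libraries below them. The share of all genes with this order was not counted. Gimap6 had 116, 138 and 128 FPKM in IRE1_KO_ITD LSK cells, 120, 101 and 86.5 FPKM in ITD LSK cells, 174, 216 and 183 FPKM in IRE1_KO LSK cells and 196, 183 and 191 FPKM in WT LSK cells. Its order followed the ITD allele, and IRE1_KO_ITD and ITD libraries overlapped.

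Gimap3, Gimap4, Gimap5 and Gimap9 shared another pattern. Gimap3 had 35.4, 23.9 and 44.6 FPKM in IRE1_KO_ITD LSK cells, 20.5, 3.19 and 3.27 FPKM in ITD LSK cells, 4.86, 4.97 and 6.20 FPKM in IRE1_KO LSK cells and 3.50, 4.37 and 4.13 FPKM in WT LSK cells. Gimap4 had 57.8, 40.1 and 46.9 FPKM in IRE1_KO_ITD LSK cells, 54.4, 13.9 and 9.55 FPKM in ITD LSK cells, 10.4, 7.65 and 8.44 FPKM in IRE1_KO LSK cells and 8.44, 6.80 and 7.68 FPKM in WT LSK cells. For each of the 4 genes, the 3 IRE1_KO_ITD libraries and ITD replicate 1 held the 4 highest places among the 12 LSK libraries. Gimap5 reached 35.2 to 41.8 FPKM in those 4 libraries and 12.1 to 24.4 FPKM in the other 8, and Gimap9 reached 39.0 to 45.0 FPKM in those 4 libraries and 20.0 to 35.0 FPKM in the other 8. In ITD LSK replicate 1 the level was 6.36 times the mean of ITD replicates 2 and 3 for Gimap3, 4.65 times for Gimap4, 2.89 times for Gimap5 and 1.65 times for Gimap9, but 1.26 times for Gimap1 and 1.29 times for Gimap6. The same 4 libraries also held the 4 highest places for 2 neighbours, Gm5111 (94.1 to 110 FPKM against 47.0 to 67.9 FPKM in the other 8) and Tmem176a (196 to 213 FPKM against 133 to 185 FPKM), and for the signalling gene Lat (45.0 to 51.0 FPKM against 25.6 to 41.6 FPKM). The neighbours Tmem176b (455 to 476 FPKM against 364 to 497 FPKM) and Repin1 (33.4 to 48.1 FPKM against 23.7 to 41.8 FPKM) did not separate in this way. Esam, from the endothelial list, and the stem cell gene Mecom were higher in ITD replicate 1 than in the mean of ITD replicates 2 and 3, by 2.76 and 2.27 times. Their whole lists differed less. The 13 endothelial genes summed to 138 FPKM in ITD replicate 1 and to 123 and 122 FPKM in ITD replicates 2 and 3. The 15 stem cell genes summed to 170, 129 and 122 FPKM in the same order. For Esam and for Mecom, the 4 libraries overlapped the other 8. This grouping was seen in the values and is a description of these libraries, and the part of the other genes in it was not tested. How many of all genes share the grouping was not counted, so it cannot be called particular to the family.

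The comparison of IRE1_KO_ITD with ITD LSK cells asks what the Ern1 genotype adds in the presence of ITD, and it chose Gimap1. The fitted log2 difference was 1.02 ± 0.11 for Gimap1, 2.25 ± 0.51 for Gimap3, 1.24 ± 0.47 for Gimap4, 1.09 ± 0.31 for Gimap5 and 0.67 ± 0.23 for Gimap8. It was smaller for Gimap6 (0.32 ± 0.12), Gimap7 (0.22 ± 0.17) and Gimap9 (0.30 ± 0.22). Without ITD LSK replicate 1 it came to 1.14 for Gimap1, 3.03 for Gimap3, 1.96 for Gimap4, 1.57 for Gimap5 and 0.85 for Gimap8. For Gimap6, Gimap7 and Gimap9 it then came to 0.44, 0.32 and 0.54. Gimap1, Gimap3 and Gimap8 were higher in every IRE1_KO_ITD than in every ITD library, or 3 of 8 members, beside 24.0% of the 11955 tested genes. Without ITD LSK replicate 1 the count was 7, and without IRE1_KO_ITD LSK replicate 1 it was 5. Leaving out a library can only keep or raise such a count. The share of all genes with a library left out was not counted, so 24.0% is no measure for these counts. Against WT LSK cells, 5 members (Gimap1, Gimap3, Gimap4, Gimap5 and Gimap9) were higher in every IRE1_KO_ITD library, beside 37.1% of all genes, and Gimap6 was lower in every one, beside 19.3%. Gimap6 differed from WT by -0.57 ± 0.12 on the log2 scale, while Gimap3 differed by 2.79 ± 0.51 and Gimap4 by 2.50 ± 0.47. Summed over the family, FPKM came to 400.2 ± 14.1 in IRE1_KO_ITD, 249.7 ± 83.0 in ITD, 369 ± 24.5 in IRE1_KO and 328 ± 10.2 in WT LSK cells (SD, n = 3 each), with 345, 211 and 193 in the 3 ITD libraries. Gimap6 made up 31.9% of that sum in IRE1_KO_ITD, 42.5% in ITD, 51.6% in IRE1_KO and 57.9% in WT LSK cells.

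**Figure D3:**
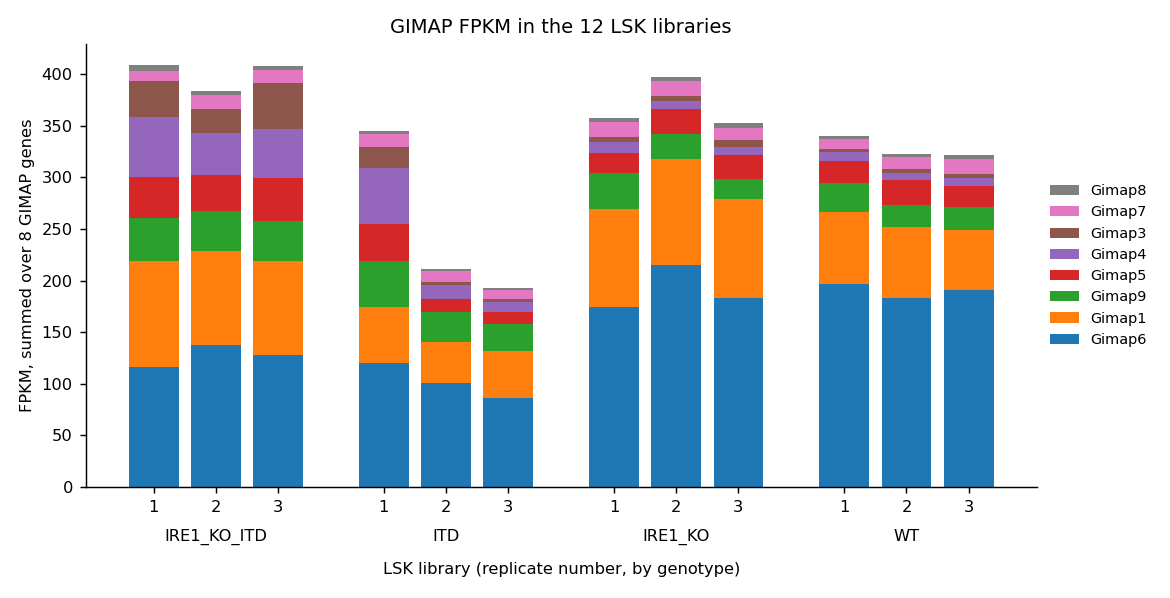
FPKM of the 8 GIMAP genes stacked for each of the 12 LSK libraries, by genotype and replicate number. ITD replicate 1 reaches 345 FPKM with wide bands of Gimap4 and Gimap3, against 211 and 193 FPKM in ITD replicates 2 and 3.

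Mature T cells carry much GIMAP transcript, so T cell markers were read in the same libraries. The T cell receptor chain genes Cd3d, Cd3e and Cd3g did not pass 0.696, 0.367 and 1.35 FPKM in any LSK library. The summed FPKM of 18 T cell genes was 123 to 130 in IRE1_KO_ITD, 89.0 to 107 in ITD, 91.5 to 118 in IRE1_KO and 81.7 to 96.7 in WT LSK libraries. Most of it came from the signalling genes Lck and Lat, which all LSK libraries held, Lck at 28.7 to 65.4 FPKM and Lat at 25.6 to 51.0 FPKM. Of the 18 genes, 12 stayed under 1 FPKM in all IRE1_KO_ITD and 9 in all WT LSK libraries. The 13 endothelial genes summed to 142 to 168 FPKM in IRE1_KO_ITD, 122 to 138 FPKM in ITD, 263 to 292 FPKM in IRE1_KO and 227 to 229 FPKM in WT LSK libraries, while the endothelial cadherin gene Cdh5 did not pass 0.636 FPKM in any of them. The natural killer list of 13 genes summed to 8.49 to 10.5 FPKM in IRE1_KO_ITD, 6.64 to 23.8 FPKM in ITD, 9.71 to 16.7 FPKM in IRE1_KO and 8.95 to 12.4 FPKM in WT LSK libraries, and its defining gene Ncr1 reached at most 0.722 FPKM. The natural killer gene Klrd1 was at 0.367 FPKM in ITD LSK replicate 1 and at 6.48 and 9.21 FPKM in ITD LSK replicates 2 and 3, beside at most 0.136 FPKM in IRE1_KO_ITD LSK libraries.

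Gimap1 and Gimap6 were lower in ITD than in WT LSK cells. Gimap6 averaged 103 ± 17.0 FPKM in ITD and 190 ± 6.79 FPKM in WT LSK cells (SD, n = 3 each), a log2 fold change of -0.89 ± 0.12. Gimap1 averaged 46.3 ± 7.02 FPKM in ITD and 66.1 ± 6.58 FPKM in WT LSK cells, a log2 fold change of -0.51 ± 0.11. For both genes every ITD library lay below every WT library, but how many of all genes separate in this way was not counted. The ITD LSK libraries entered the difference that chose Gimap1, and the WT LSK libraries the one that chose Gimap6, so neither value was tested. Of the other 6 members limma called 0, beside 22.2% of all genes in either direction, and 1 had an unadjusted p under 0.05. The median of the 8 members was -0.22, beside 0.08 over all tested genes.

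Gimap4 did not pass the threshold in that comparison (1.25 ± 0.47, limma, Benjamini-Hochberg adjusted p = 0.0766), nor did Gimap3 (0.55 ± 0.51), Gimap5 (-0.31 ± 0.31), Gimap7 (-0.13 ± 0.17), Gimap8 (-0.32 ± 0.23) or Gimap9 (0.45 ± 0.22). The values of Gimap3, Gimap4 and Gimap5 rest on ITD replicate 1. Without it Gimap5 was called as lower in ITD LSK cells (-0.80 ± 0.12, limma adjusted p = 0.0025), Gimap3 changed sign to -0.24 and Gimap4 came to 0.54 (limma adjusted p = 0.0726). Without ITD replicate 3, in contrast, Gimap4 was called as higher (1.74 ± 0.42, limma adjusted p = 0.0278). Other gene groups moved in the same comparison: 9 of 14 tested stem cell genes fell, among them Ndn (-2.69 ± 0.24, limma adjusted p = 0.0002) and Procr (-1.59 ± 0.25, limma adjusted p = 0.0025), and none rose, beside 7.27% of all genes that fell. Of 8 tested endothelial genes 7 fell, among them Egfl7 (-0.83 ± 0.10, limma adjusted p = 0.0006) and Cldn5 (-1.22 ± 0.18, limma adjusted p = 0.0016). Of 11 tested B cell genes 10 fell, and of 12 lymphoid priming genes 9 fell, among them Satb1 (-1.28 ± 0.24, limma adjusted p = 0.0053). The summed FPKM of 15 stem cell genes was 122 to 170 in ITD and 218 to 286 in WT LSK libraries. The summed FPKM of 12 B cell genes was 180 to 222 in ITD and 333 to 507 in WT LSK libraries. The part of these gene groups in the lower levels of Gimap1 and Gimap6 was not tested.

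Gimap1 was higher in IRE1_KO than in WT LSK cells. It averaged 97.7 ± 3.81 FPKM in IRE1_KO and 66.1 ± 6.58 FPKM in WT LSK cells (SD, n = 3 each), a log2 fold change of 0.56 ± 0.11. Every IRE1_KO library lay above every WT library, but the share of all genes that do so was not counted. Gimap6 averaged 191 ± 21.8 FPKM in IRE1_KO and 190 ± 6.79 FPKM in WT LSK cells. Of the other 6 members limma called 0, beside 23.7% of all genes in either direction, none had an unadjusted p under 0.05, and they differed by -0.02 to 0.43. This comparison was tilted towards higher values, with 2506 of 2831 called genes higher and a median of 0.14 over all genes, and all its IRE1_KO libraries carry the 1ng tag, which cannot be told apart from the genotype. With a median-ratio size factor 1532 of 2388 called genes were higher, with quantile normalization 1408 of 2574, and Gimap1 came to 0.36 under each.

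In GMP cells 5 members passed the filter of at least 1 FPKM in at least 3 of the 12 libraries: Gimap1, Gimap6 and Gimap9 in all 12, Gimap5 in 6 and Gimap4 in 3. Gimap3, Gimap7 and Gimap8 did not enter the fit there, and Gimap6 was described without a test, which left 4 members. Gimap1 had 10.0, 9.15 and 11.7 FPKM in IRE1_KO_ITD GMP cells, 8.15, 6.15 and 5.14 FPKM in ITD GMP cells, 3.11, 5.03 and 3.97 FPKM in IRE1_KO GMP cells and 2.03, 4.77 and 3.06 FPKM in WT GMP cells. Gimap9 had 13.8, 14.2 and 17.3 FPKM in IRE1_KO_ITD GMP cells, 11.8, 7.39 and 5.88 FPKM in ITD GMP cells, 6.45, 4.33 and 5.12 FPKM in IRE1_KO GMP cells and 5.68, 6.93 and 5.08 FPKM in WT GMP cells. For both genes all IRE1_KO_ITD libraries lay above the 9 others, and the IRE1_KO and WT libraries overlapped. The share of all genes in which they lie above the 9 others was not counted.

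Gimap1 and Gimap9 rose in IRE1_KO_ITD against IRE1_KO GMP cells, which sets the ITD allele against its absence on the Ern1 genotype. The log2 fold change was 1.36 ± 0.22 for Gimap9 (limma, adjusted p = 0.0036) and 1.18 ± 0.24 for Gimap1 (limma, adjusted p = 0.0109), or 2 of 4 tested members, beside 13.0% of all genes in either direction and 8.47% that rose. Gimap5 (0.56 ± 0.24) and Gimap4 (0.10 ± 0.28) were not called, and Gimap6 differed by 0.58 ± 0.28. Other gene groups moved in the same comparison. Of 11 tested B cell genes 9 fell, among them Cd79a (-4.88 ± 0.59, limma adjusted p = 0.0008), beside 4.50% of all genes that fell. Of 12 tested GMP genes 4 fell, among them the granule protease genes Elane (-0.66 ± 0.15, limma adjusted p = 0.0165) and Prtn3 (-0.69 ± 0.11, limma adjusted p = 0.0030), and 1 rose. Cd34 rose (0.69 ± 0.18, limma adjusted p = 0.0293). Of 5 tested stem cell genes 2 rose, among them Meis1 (0.89 ± 0.19, limma adjusted p = 0.0131), and 1 fell, Gata2 (-1.14 ± 0.16, limma adjusted p = 0.0018). The summed FPKM of 12 GMP genes was 19650 to 22754 in IRE1_KO_ITD and 26246 to 30258 in IRE1_KO GMP libraries, and the part of these groups in the rise of Gimap1 and Gimap9 was not tested. In IRE1_KO_ITD against ITD GMP cells 0 of 4 tested members were called by limma, beside 1.83% of all genes, and 3 had an unadjusted p under 0.05, with Gimap9 at 0.83 ± 0.22 (limma adjusted p = 0.0857) and Gimap1 at 0.61 ± 0.24. The 1.83% is a share by adjusted p. The share of all genes by unadjusted p was not counted, for this or the other comparisons. Without ITD GMP replicate 1 Gimap9 was called there (1.08 ± 0.18, limma adjusted p = 0.0101). Of 3 tested T cell genes 2 rose there, beside 1.83% of all genes called in either direction. These were Lat (1.29 ± 0.24, limma adjusted p = 0.0259) and Lck (1.35 ± 0.25, limma adjusted p = 0.0259). Lck was at 6.10, 3.77 and 5.56 FPKM in IRE1_KO_ITD and 1.49, 1.54 and 1.13 FPKM in ITD GMP cells. Cd3d, Cd3e and Cd3g did not pass 0.425, 0.0532 and 0.199 FPKM in any GMP library, and the part of T cells was not tested.

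In ITD against WT GMP cells 0 of 4 tested members were called by limma, beside 10.7% of all genes, and Gimap1 alone had an unadjusted p under 0.05 (0.83 ± 0.24, limma adjusted p = 0.0504). It crossed the threshold with a pseudocount of 0.1 (limma adjusted p = 0.0490), with a median-ratio size factor (limma adjusted p = 0.0465) and without WT GMP replicate 2 (1.07 ± 0.22, limma adjusted p = 0.0327). In IRE1_KO against WT GMP cells limma called 0 of 4 tested members and none had an unadjusted p under 0.05, beside 0.533% of all genes called. Gimap6 averaged 5.83 ± 2.65 FPKM in IRE1_KO and 4.85 ± 1.77 FPKM in WT GMP cells (SD, n = 3 each), a difference smaller than its spread.

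**Figure D4:**
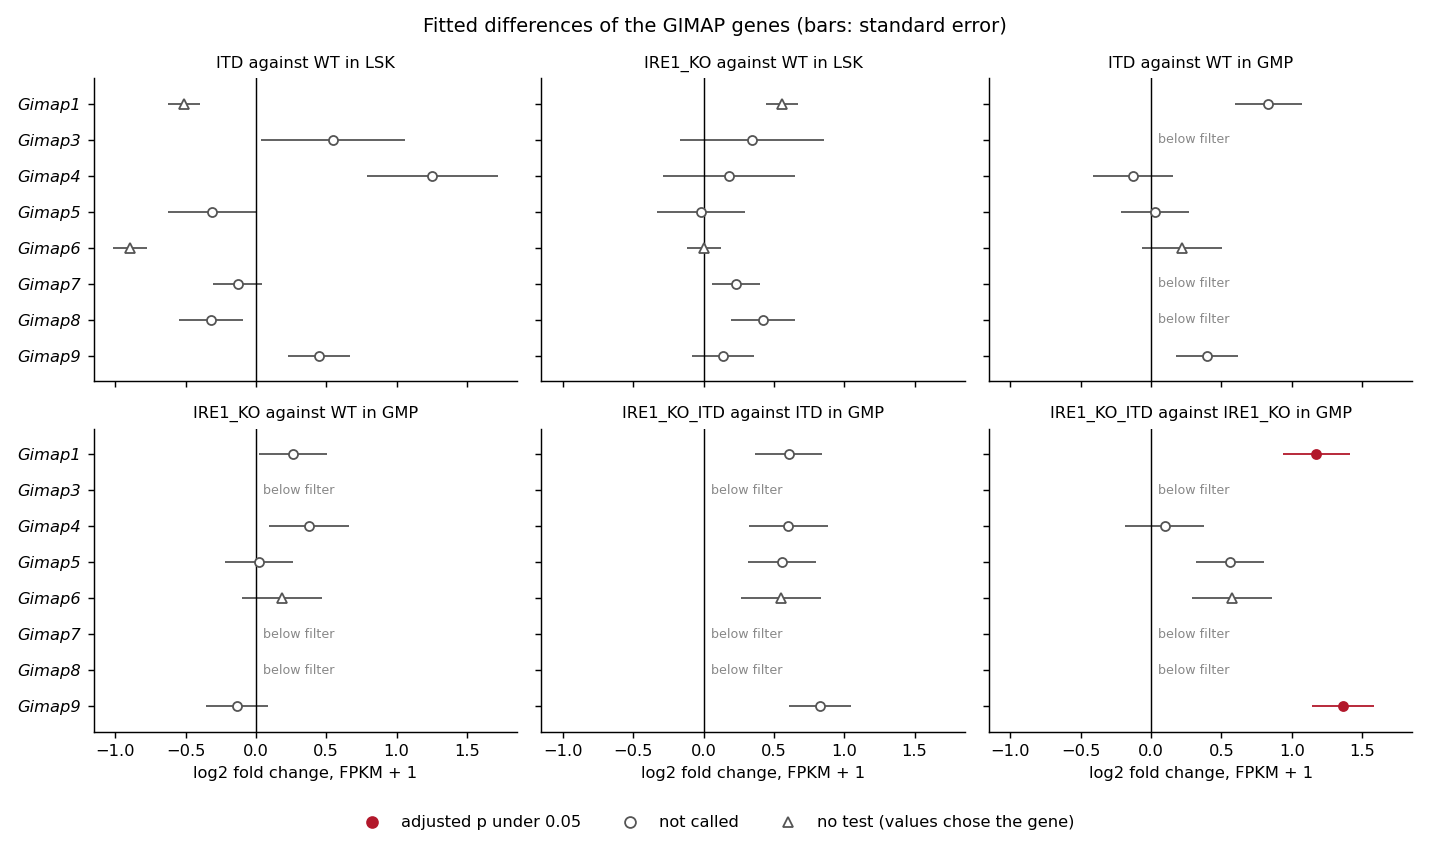
Log2 fold changes of the GIMAP genes on the log2(FPKM + 1) scale with standard errors, for 6 comparisons, first over second group (n = 3 each). Filled points are called (Gimap1 and Gimap9 in IRE1_KO_ITD against IRE1_KO GMP cells), open circles are not called, and triangles mark Gimap6, and Gimap1 in LSK cells, which were not tested because their values chose the family.

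The ITD difference of Gimap1 ran in opposite directions in the populations, with every ITD library above every WT library in GMP cells and below every one in LSK cells. The share of all genes with such a separation was not counted. The effect of ITD against WT in GMP minus that in LSK cells was 1.35 ± 0.27 for Gimap1 and 1.11 ± 0.32 for Gimap6 on the log2(FPKM + 1) scale. These differences rest on GMP against LSK values and on ITD LSK libraries that the choice of the family used, so they were not tested, and their SE takes the libraries as independent.

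GIMAP proteins are tied by background knowledge to the Atg8 branch of autophagy (Gimap6) and to the BCL2 family (Gimap3, Gimap4 and Gimap5), so both groups were read beside them. Of 17 tested autophagy genes, 2 fell in ITD against WT LSK cells, the kinase gene Ulk1 (-0.84 ± 0.18, limma adjusted p = 0.0101) and Map1lc3b (-0.52 ± 0.12, limma adjusted p = 0.0113), beside 7.27% of all genes, and none rose. In IRE1_KO against WT LSK cells 6 rose, beside 21.0% of all genes, and 1 fell, beside 2.72%, with Atg3 at 1.11 ± 0.15 (limma adjusted p = 0.0003), and the list median was 0.22 beside 0.14 over all genes. Of 13 tested BCL2 family genes 6 rose, beside 14.9% of all genes, and 1 fell in ITD against WT LSK cells. Those with the smallest p were the survival gene Bcl2 (1.34 ± 0.21, limma adjusted p = 0.0023) and Bid, a pro-apoptotic member (0.55 ± 0.10, limma adjusted p = 0.0037), while Bcl2a1a (2.34 ± 0.42, limma adjusted p = 0.0043) and Bcl2a1b (2.28 ± 0.44, limma adjusted p = 0.0060) rose by more. These belong to a cluster of near-identical copies, so their values are uncertain. In GMP cells 3 of 14 rose in ITD against WT, beside 7.37% of all genes, and 3 of 14 in IRE1_KO_ITD against IRE1_KO, beside 8.47%, including Bcl2 each time (1.29 ± 0.24, limma adjusted p = 0.0090, and 0.98 ± 0.24, limma adjusted p = 0.0233). A list of chromosome 6 genes around the cluster, written without the 300 kb limit, had 12 tested members in LSK cells, of which 1 rose (Zfp398) and 1 fell (Zfp467, -1.26 ± 0.22, limma adjusted p = 0.0034) in ITD against WT LSK cells, while in IRE1_KO_ITD against IRE1_KO GMP cells 4 of 11 rose, beside 8.47% of all genes, among them Tmem176a (0.91 ± 0.14, limma adjusted p = 0.0027) and Repin1 (1.03 ± 0.24, limma adjusted p = 0.0190). Tmem176a and Tmem176b overlap on opposite strands, so their reads may not be told apart.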

How the data were processed

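Each library has a table of FPKM values deposited by the authors, 1 per gene symbol. The submitters' processing notes name STAR, Cufflinks and the mm10 build, without versions. The labels' protocols give SMART-Seq v4 with Nextera XT, whereas the series text gives stranded TruSeq libraries, and neither the kit used nor the strand setting was settled. Members and gene lists were chosen with earlier results of these data known. The test was limma 3.58.1 (R 4.3.3, moderated, with a mean-variance trend) on log2(FPKM + 1), run on the 12 libraries of a population or on all 24. A gene entered when 3 or more libraries of the fit reached 1 FPKM. Adjusted p (Benjamini-Hochberg over all genes of a comparison) under 0.05 was called. Gimap6, Gimap1 in LSK cells and the population difference in the ITD effect were planned as tests but are given without one, since their values entered the choice of the family. The procedure was tested on simulated data. Named genes were the members, Ern1, Flt3 and Kit, the 5 genes most like Gimap6 and the 5 most like Gimap1, and up to 4 called genes with the smallest p per list and comparison; not all are printed (1 of those most like Gimap6 is not reported here), and Gm5111 and the marker genes read for ITD LSK replicate 1 were named after their values were seen. Alternatives were sex as a covariate, a replicate block, only the libraries compared, leaving out each library, quantile or median-ratio scaling, no filter and a pseudocount of 0.1. Tables and figures used Python 3.11.15, numpy 2.4.6, pandas 2.3.3 and matplotlib 3.10.9.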

Additional observations from a re-analysis of the deposited data

Results flagged for a closer look

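Gimap1 ran in opposite directions with ITD in the populations: every ITD library lay above every WT library in GMP cells and below every WT library in LSK cells. The effect of ITD against WT in GMP minus that in LSK cells was 1.35 on the log2(FPKM + 1) scale. This difference was not tested, because ITD LSK values entered the choice of Gimap1. How many of all genes separate in these ways was not counted.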

How the results depend on the processing

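Over 60 member results and their alternatives, 581 of 625 recomputed values kept their direction and their side of the threshold or, without a test, moved by less than the spread. With the replicate number as a block, 2 of 6 tested members were called in ITD against WT LSK cells, Gimap4 (adjusted p = 0.0452) and Gimap9 (adjusted p = 0.0470), and the block changed no other member count. Within a population, deviations of same-numbered libraries correlated at -0.434 to 0.147, so shared numbers were not read as pairing. Between GMP and LSK libraries of a genotype they correlated at 0.113 to 0.263 in ITD, 0.105 to 0.308 in IRE1_KO, 0.0669 to 0.181 in WT and -0.0699 to 0.0264 in IRE1_KO_ITD, a hint from the data that some numbers may be shared between populations. Sex matched by number in ITD (all female), IRE1_KO and WT. In IRE1_KO_ITD, replicate 2 was female in GMP and male in LSK cells, and replicate 3 the reverse. Those IRE1_KO_ITD numbers thus do not mark the same animal. In ITD against WT GMP cells 1 member was called with a pseudocount of 0.1 and with a median-ratio size factor, and 0 to 1 with a library left out. Leaving out 1 library gave 0 to 1 called members in ITD against WT LSK cells, 0 to 1 in IRE1_KO_ITD against ITD GMP cells, and 3 to 7 members higher in every IRE1_KO_ITD than in every ITD LSK library. The last count can only stay or rise when a library is left out, and the matching share of all genes was not counted. All 8 members stayed lower in every GMP than in every LSK library with any library left out. Leaving out a library cannot break such a separation, so this was fixed in advance.

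Signs changed only for members that were not called or not tested, and the cause was not tested. In IRE1_KO against WT LSK cells quantile normalization gave -0.13 for Gimap4, -0.0703 for Gimap6, -0.10 for Gimap7 and -0.14 for Gimap9; a median-ratio size factor gave -0.20 for Gimap6 and -0.0525 for Gimap9; and sex as a covariate gave -0.0279 for Gimap6. These scalings moved the median of all genes there to -0.08 and -0.03, against 0.14 without them. In GMP cells Gimap5 came to -0.0697 in ITD against WT with quantile normalization, and in IRE1_KO against WT to -0.0244 with quantile normalization and -0.0028 with a median-ratio size factor. The population difference of Gimap9 came to 0.0412 with a median-ratio size factor. With a library left out, log2 values in ITD against WT LSK cells spanned -0.24 to 0.94 for Gimap3 and -0.27 to 0.0090 for Gimap7. In IRE1_KO against WT LSK cells they spanned -0.0901 to 0.0756 for Gimap5, -0.087 to 0.0662 for Gimap6 and -0.0716 to 0.32 for Gimap9. In ITD against WT GMP cells they spanned -0.22 to 0.0418 for Gimap4, -0.13 to 0.23 for Gimap5 and -0.0026 to 0.44 for Gimap6. In IRE1_KO against WT GMP cells they spanned -0.14 to 0.22 for Gimap5 and -0.0806 to 0.52 for Gimap6, in IRE1_KO_ITD against IRE1_KO GMP cells -0.22 to 0.27 for Gimap4, and for the population difference -0.30 to 0.19 for Gimap9.

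Counts of all called genes moved more. With sex as a covariate they were 1384 in ITD against WT LSK cells (2650 otherwise), 271 in ITD against WT GMP cells (1203), 39 in IRE1_KO against WT GMP cells (60) and 15 in IRE1_KO_ITD against ITD GMP cells (206). With only the libraries compared they were 1689, 509, 59 and 12. The block gave 783 in ITD against WT, 35 in IRE1_KO against WT and 62 in IRE1_KO_ITD against ITD GMP cells; a pseudocount of 0.1 gave 130 in the last, and a median-ratio size factor 95 in IRE1_KO against WT GMP cells. Scaling also moved the direction of calls. With a median-ratio size factor 1106 of 2422 called genes were higher in ITD against WT LSK cells (quantile 1251 of 2367, unscaled 1781 of 2650), 1532 of 2388 in IRE1_KO against WT LSK cells (quantile 1408 of 2574, unscaled 2506 of 2831), 947 of 1699 in ITD against WT GMP cells (quantile 616 of 1240, unscaled 829 of 1203), 78 of 236 in IRE1_KO_ITD against ITD GMP cells (unscaled 103 of 206) and 728 of 1419 in IRE1_KO_ITD against IRE1_KO GMP cells (unscaled 953 of 1459).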
